A study of Mus musculus with 69 samples.

Results

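The 46 genes described here are interferon response genes of the mouse: the transcription factors that carry or limit the interferon response, the cytoplasmic sensors of viral RNA, antiviral effector genes, enzymes of the ISG15 and ubiquitin system, interferon-inducible GTPases and the genes that process antigen for MHC class I. They were taken by gene symbol from the count matrix. All 46 were among its 24411 genes, and all 46 passed the minimum of 2 counts over the 69 libraries that left 21175 genes in the tests. No member had 3 counts or fewer in every library. The member with the lowest maximum was Isg15, with 63 counts in its highest library.

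The libraries came from kidneys of mice that make the uracil phosphoribosyltransferase of Toxoplasma (Uprt) from the Rosa26 locus once Cre has removed a stop cassette. Cells with the enzyme build injected 4-thiouracil (4-TU, 430 mg per kg, given 4 hours before dissection) into new RNA, which was then biotinylated and pulled down. Libraries labelled Hoxb7 Pulldown came from Hoxb7Cre;UPRTf/+ mice, in which Cre acts in the collecting duct, and those labelled Atp6b1v1 Pulldown from Atp6b1v1Cre;UPRTf/+ mice, in which Cre acts in intercalated and double-positive cells of the duct and, in some kidneys, in a few scattered interstitial cells. Control mice carried the same alleles and received 4-TU. The iAKI mice had both renal pedicles clamped for 10 minutes and were labelled 24 hours later, and the vAKI mice went without water and food for 72 hours, so that fasting and volume loss cannot be told apart. The Uprt line had been backcrossed to C57BL/6J for 5 generations before it was bred with the Cre lines. The Hoxb7 pulldowns numbered 10 Control, 7 iAKI and 7 vAKI, the Atp6b1v1 pulldowns 11 Control, 6 iAKI and 7 vAKI, and 21 further libraries held the total kidney RNA of control mice of either genotype (Control Total). Mice were 5.5 months old, apart from 3 male Control Atp6b1v1, 2 female Control Hoxb7 and 5 Control Total libraries of 3 months. By sex and age the Control Total libraries equal the control pulldowns in number, and the study's supplement gives 21 mice for comparing them. Whether a mouse gave both was not established.

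The injury comparisons used the 22 male pulldowns of 5.5 months: 4 Control, 4 iAKI and 3 vAKI with Hoxb7Cre, and 4 Control, 3 iAKI and 4 vAKI with Atp6b1v1Cre. The study's supplement gives numbers of male mice per condition that equal the numbers of these libraries. The p-values measure the spread between these libraries. A gene was called changed at an adjusted p under 0.05 in the quasi-likelihood test of edgeR, with Benjamini-Hochberg adjustment over all 21175 genes. Fold changes are log2 values with an SE derived from that test. This SE is the absolute log2 fold change divided by the square root of the F statistic, and it is unreliable for changes near 0. Levels are CPM, counts scaled to the library total with TMM factors, and levels of different genes are compared only as RPKM, which also divides by exon length. A pulldown may favour RNA rich in uracil or quickly renewed, so the order of different genes in it is not that of their absolute levels.

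Interferons are secreted proteins that signal through receptors with JAK kinases. Type I and type III interferons assemble a factor from Stat2, Irf9 and a partner STAT that binds the interferon-stimulated response element (ISRE), and interferon gamma acts through STAT dimers on the gamma-activated site (GAS). The targets include sensors that detect viral RNA, effectors that block viral replication, GTPases that attack the vacuoles of microbes, and the immunoproteasome and peptide transporter that load MHC class I. Tubule cells of the kidney can both respond to interferon and raise their own antigen processing in inflamed kidneys.

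Promoter sequences show which members carry these elements next to the start of transcription. RefSeq windows of 300 bases (GRCm38.p6) were held for 34 of the 46 members. The ISRE core, searched as GAAANNGAAA on both strands, occurred in 17 of the 34 (50%), against 1079 of 27025 genes with a window (3.99%). The GAS, searched as TTCNNNGAA, which reads the same on both strands, occurred in 11 of the 34 (32.4%) against 2582 of all (9.55%). A match is a run of letters, not a measured site, and matches of the 2 motifs could overlap. The first 8 stretches below belong to genes that rose in at least 1 vAKI comparison, printed 5′ to 3′ on the strand of the gene with motif matches in capitals.
Irf1 (chr11:53769904-53769952, + strand): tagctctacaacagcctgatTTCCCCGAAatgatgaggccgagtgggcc
Irf8 (chr8:120736167-120736233, + strand): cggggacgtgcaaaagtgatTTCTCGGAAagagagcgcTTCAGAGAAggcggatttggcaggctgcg
Stat2 (chr10:128270256-128270305, + strand): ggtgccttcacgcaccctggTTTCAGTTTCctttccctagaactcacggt
Rsad2 (chr12:26456543-26456592, - strand): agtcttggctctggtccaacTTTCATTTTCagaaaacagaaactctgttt
Isg15 (chr4:156200855-156200916, - strand): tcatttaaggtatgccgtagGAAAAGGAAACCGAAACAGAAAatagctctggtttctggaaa
Isg20 (chr7:78913331-78913379, + strand): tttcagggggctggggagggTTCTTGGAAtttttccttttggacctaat
Gbp3 (chr3:142559979-142560034, + strand): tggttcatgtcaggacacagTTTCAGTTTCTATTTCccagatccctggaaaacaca
Gbp7 (chr3:142530210-142530312, + strand): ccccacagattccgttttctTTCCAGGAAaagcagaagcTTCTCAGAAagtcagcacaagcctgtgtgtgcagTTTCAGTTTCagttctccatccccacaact

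The next 4 stretches belong to members that were not called in any injury comparison and carry the same elements, shown for contrast.
Ifit1 (chr19:34640765-34640833, + strand): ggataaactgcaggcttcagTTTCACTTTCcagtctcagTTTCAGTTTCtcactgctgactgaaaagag
Bst2 (chr8:71537567-71537628, - strand): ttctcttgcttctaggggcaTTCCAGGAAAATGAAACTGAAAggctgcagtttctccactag
Igtp (chr11:58199491-58199551, + strand): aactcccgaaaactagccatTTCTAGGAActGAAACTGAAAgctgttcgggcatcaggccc
Irgm2 (chr11:58214882-58214942, + strand): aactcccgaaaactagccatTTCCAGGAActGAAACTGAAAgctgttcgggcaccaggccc

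The Igtp and Irgm2 stretches are alike in arrangement, each with a GAS match followed by an ISRE core. Irf1 and Irf8 hold GAS matches without an ISRE core, whereas Rsad2, Stat2, Isg15 and Gbp3 hold the ISRE core alone. Of the 17 members with an ISRE core, 8 rose and 1 fell in the Hoxb7 vAKI comparison described below, and of the 17 without one 7 rose. Among the 11 with a GAS match 5 rose and 1 fell, against 10 that rose among the 23 without. In the Atp6b1v1 vAKI comparison 4 rose and 1 fell with the ISRE core, and 4 rose without it. These counts are a description of short windows and were not tested.

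Depth was even enough for all members to be followed in every group: the libraries held 12618062 to 30305464 counts, with a median of 20868430. The labelled cells left their mark on the pulldowns. The summed level of 6 principal cell markers was 2420 to 3030 CPM in the male Hoxb7 controls against 680 to 904 CPM in total RNA of males of the same age, and that of 6 intercalated cell markers was 706 to 934 CPM in the Atp6b1v1 controls against 303 to 364 CPM. Markers of unlabelled segments were lower but present, as the 5 proximal tubule markers summed to 1580 to 2930 CPM in the Hoxb7 pulldown and 10300 to 13700 CPM in total RNA. Control Hoxb7 replicate 4 stood apart from the other male controls, with higher levels of many members (Gbp2 at 18.0 CPM and Tap1 at 24.5 CPM).

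At rest RNA of all 6 roles was present in both pulldowns. How much of it came from unlabelled cells, whose markers were also present, was not tested. The highest RPKM levels by role over the control libraries were those of B2m, the light chain of MHC class I, at 61.1 ± 15.3 (SD, n = 10) in the Hoxb7 pulldown and 78.7 ± 11.9 (SD, n = 11) in the Atp6b1v1 pulldown. Trim25, a ubiquitin ligase that acts on the RNA sensor RIG-I, followed at 21.4 ± 5.93 and 20.8 ± 5.92 RPKM. Irf3, the factor that turns on type I interferon genes downstream of the sensors, was the highest regulator at 10.8 ± 1.05 and 10.8 ± 1.44 RPKM. Ifit3, which binds viral RNA together with its relatives, was the highest effector at 10.1 ± 4.05 and 10.0 ± 4.54 RPKM. Ddx58, which encodes RIG-I, was the highest sensor at 9.23 ± 1.03 and 6.97 ± 0.943 RPKM, and Irgm1, a GTPase of vacuole defence, the highest GTPase at 7.18 ± 2.05 and 7.24 ± 1.41 RPKM. These neighbours from Irf3 to Irgm1 lay within a few RPKM of each other, with overlapping SDs for Irf3 and Ifit3. Gbp5, Mx1 and Ciita were among the lowest, at 0.333 ± 0.192, 0.423 ± 0.22 and 0.443 ± 0.182 RPKM in the Hoxb7 pulldown.

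Volume depletion was followed by higher levels of many interferon response genes in the Hoxb7 pulldown. Of the 46 members 21 rose (45.7%) and 2 fell (4.35%), where 17.9% of all genes tested rose and 17.6% fell. The median log2 fold change of the members was 0.534, and that of all genes tested was 0. At least a 2-fold rise was fitted for 16 of the 21. The share that rose was above the background and the share that fell was below it. The background also holds genes with far fewer counts than any member, which are harder to call. These differences between shares were not tested. In bulk RNA of this kind, fewer cells of a type and less new RNA per cell cannot be told apart. Library series here follow the wide gaps in the library numbers of the labels, and no label names them as batches. Within the library series that held all injured Hoxb7 males and 2 of the 4 controls, 26 members rose and 3 fell, where 39% of all genes were called in either direction. In place of 23 called members there were 13 with the replicate number as a block (21% of all genes), although that number does not pair the libraries, 9 with both sexes (12.8%), and 0 by edgeR in females alone (0.109%), where 5 had an unadjusted p under 0.05.

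Among the 11 regulators 4 rose and 2 fell. Irf1, a factor induced by interferon gamma, was at 12.6, 12.5, 26.6 and 14.5 CPM in the controls and at 61.0, 57.9 and 130 CPM after vAKI. Every vAKI library lay above every control, with a log2 fold change of 2.33 ± 0.357 (adjusted p = 2.78e-05). Irf8, best known from macrophages and dendritic cells, was at 8.05, 4.65, 8.35 and 6.37 CPM in the controls and at 22, 28.5 and 32.7 CPM after vAKI. The groups did not overlap here either, and the fold change was 2.02 ± 0.175 (adjusted p = 5.04e-08). Irf7, which amplifies type I interferon production, rose by 1.39 ± 0.212 from 3.28 to 5.93 CPM in controls to 10.8 to 13.6 CPM (adjusted p = 2.73e-05). Stat2, the STAT of the type I response, rose by 0.81 ± 0.154 from 41.1 to 50.1 CPM to 70.8 to 91.6 CPM (adjusted p = 0.000272).

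The 2 regulators that fell have other tasks. Ciita, the master regulator of MHC class II genes, was at 4.47, 3.44, 6.17 and 3.47 CPM in controls and at 2.17, 1.92 and 1.44 CPM after vAKI. Its fold change was -1.25 ± 0.379 (adjusted p = 0.0126), and without vAKI replicate 7 it was -1.10 with an adjusted p of 0.0649. Irf2, which competes with Irf1 for shared target sites, was at 28.99, 34, 40.4 and 38.2 CPM in controls and at 24.2, 26.0 and 24.6 CPM after vAKI, without overlap. This was a fold change of -0.50 ± 0.128 (adjusted p = 0.00369). Irf3, Irf4, Irf5, Irf9 and Nlrc5 did not pass the test, with fold changes from -0.13 to 0.53.

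Of the 14 antiviral effectors 7 rose and none fell. Rsad2 encodes viperin, an enzyme that makes a chain-terminating nucleotide. It was at 10.3, 7.17, 18.4 and 9.33 CPM in controls and at 45.5, 53.1 and 58.8 CPM after vAKI, a fold change of 2.22 ± 0.391 (adjusted p = 0.000127). Mx2, a dynamin-like antiviral GTPase that GENCODE vM21 lists as a polymorphic pseudogene, went from 1.94, 1.07, 1.73 and 1.97 CPM to 5.29, 5.64 and 6.37 CPM, a fold change of 1.78 ± 0.325 (adjusted p = 0.000179). Isg20, an RNA exonuclease, went from 1.77, 1.31, 1.43 and 1.64 CPM to 3.83, 5.86 and 5.18 CPM, a fold change of 1.69 ± 0.384 (adjusted p = 0.00142). None of these 3 overlapped between control and vAKI libraries. Rtp4, which also limits viral replication, rose by 1.8 ± 0.369, from 1.45 to 4.10 CPM in controls to 9.09 to 12.8 CPM. The other risers were Xaf1 (1.40), Isg15 (1.21) and Ifit3 (0.74) on the log2 scale. The Ifit3 call was kept in 17 of the 22 fits that each left out 1 library. It was lost with the replicate block and with both sexes. Isg15, the ubiquitin-like modifier, was low throughout, at 0.469 to 0.716 CPM in controls and 0.957 to 1.97 CPM after vAKI, and without vAKI replicate 7 its fold change was 0.91 with an adjusted p of 0.0786. The effectors not called were Ifit1, Ifit2, Mx1, Bst2, Cmpk2, Parp9 and Parp14, whose fold changes ran from -0.26 to 0.61.

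Of the 9 GTPases 4 rose: Gbp5, Gbp3, Gbp7 and Gbp4, which belong to the guanylate-binding proteins that coat the vacuoles of intracellular microbes. Gbp3 was at 3.497, 3.20, 5.93 and 2.72 CPM in controls and at 8.71, 8.32 and 13.4 CPM after vAKI (fold change 1.41 ± 0.338, adjusted p = 0.0022). Gbp7 went from 8.89, 6.59, 15.9 and 7.50 CPM to 22.9, 21.4 and 26.9 CPM (1.29 ± 0.336, adjusted p = 0.00414). Both groups of values stood apart without overlap. Gbp5 was at 1.18, 1.07, 2.86 and 1.03 CPM in controls and at 2.37, 4.05 and 10.2 CPM after vAKI, which overlapped. Its fold change of 1.86 ± 0.447 (adjusted p = 0.00225) rested on vAKI replicate 7, without which it was 1.08 with an adjusted p of 0.0693. Gbp4 changed by 1.01 ± 0.362 (adjusted p = 0.0326), with the high Control replicate 4 inside the vAKI range, and was at 1.59 without that control. The Gbp4 call was kept in 17 of the 22 edgeR fits that each left out 1 library. In those that lost it the adjusted p ran from 0.0681 to 0.119. Gbp2, Gbp6, Igtp, Irgm1 and Irgm2 had fold changes from -0.20 to 0.31 and were not called.

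Antigen processing genes moved upward as well, with 4 of 7 called. Tap1, a subunit of the peptide transporter, was at 12.3, 10.7, 24.5 and 9.94 CPM in controls and at 27.7, 34.8 and 34.6 CPM after vAKI (1.18 ± 0.297, adjusted p = 0.00334). Its partner Tap2 rose by 0.54, the immunoproteasome subunit Psmb9 by 0.95 and B2m by 0.65. Psmb9 and B2m overlapped with the controls through Control replicate 4. The Psmb9 call was lost in 5 of the 22 fits that each left out 1 library, with its lowest fold change of 0.75 (adjusted p = 0.126) without Control replicate 2, and without Control replicate 4 it was 1.60. The Tap2 call was lost without Control replicate 2 or 5 or vAKI replicate 7, with adjusted p from 0.0506 to 0.0873. Psmb8, Psmb10 and Tapbp were not called, at 0.66, -0.14 and 0.28. Of the 3 subunits of the constitutive proteasome that the immunoproteasome replaces, Psmb6 rose by 0.51 and the other two were not called. Of the 3 RNA sensors only Dhx58, a helper of the other two, rose, from 1.59 to 2.57 CPM to 4.38 to 4.58 CPM (1.19 ± 0.229, adjusted p = 0.000324), while Ddx58 and Ifih1 stood at -0.24 and 0.07. Usp18, which strips ISG15 from proteins and restrains the type I receptor, rose by 1.09 ± 0.223 (adjusted p = 0.000544), and Trim25 stood at 0.25.

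**Figure D1:**
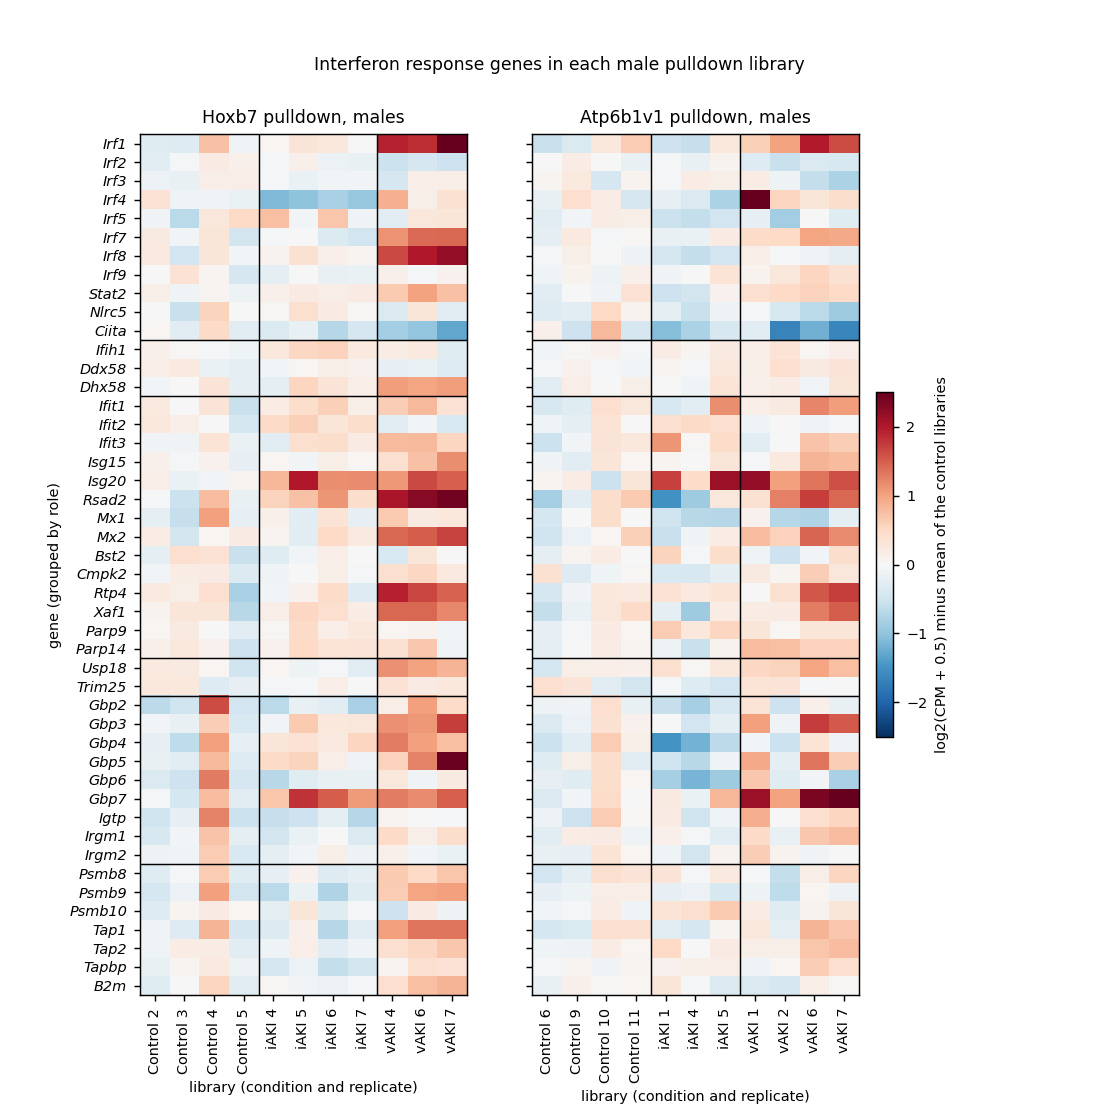
Level of each of the 46 genes (vertical axis, grouped by role between the black lines) in each male pulldown library (horizontal axis, condition and replicate), as log2(CPM + 0.5) minus the mean of the control libraries of the same driver. Red is above and blue below the controls. The 3 vAKI Hoxb7 libraries are red for Irf1, Irf7, Irf8, Rsad2, Mx2 and Rtp4, and Control Hoxb7 replicate 4 is red for many GTPases.

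Other cells moved in the same Hoxb7 libraries. Of 7 macrophage markers 4 rose and 2 fell after vAKI (Cd68 at 2.06 and C1qb at 1.11, against Adgre1 at -1.19 and Csf1r at -0.71), and their summed level was 49.9 to 66.6 CPM in controls and 54.8 to 64.3 CPM after vAKI. Of 6 MHC class II genes 3 rose, with summed levels of 50.9 to 124 CPM and 108.5 to 175 CPM. The 5 dendritic cell markers gave 1 rise and 3 falls, and summed levels of 8.82 to 15.5 CPM and 19.6 to 23.6 CPM. The 6 endothelial markers gave 2 rises, with 97.3 to 182 CPM and 208 to 267 CPM. No marker of these 4 lists was at 0 in every library of a group. The 6 T cell markers gave no call and summed to 1.36 to 2.62 CPM in controls and 2.21 to 2.57 CPM after vAKI, and the 5 NK cell markers gave 1 fall and summed to 0.484 to 1.88 and 0.217 to 0.411 CPM, with 1 of them at 0 in all vAKI libraries. All 6 principal cell markers fell, from 2420 to 3030 CPM to 1010 to 1130 CPM. So did 5 of 5 fat cell markers (40.8 to 113 CPM and 13.7 to 27.6 CPM), 4 of 6 intercalated cell markers (564 to 925 CPM and 400 to 658 CPM) and both markers of the thick ascending limb (1330 to 2320 CPM and 762 to 850 CPM). The part of these cell types in the rise of the interferon response genes was not tested.

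In the Atp6b1v1 pulldown volume depletion moved fewer members past the threshold. Of the 46 members 13 rose (28.3%) and 2 fell (4.35%), where 8.11% of all genes tested rose and 6.47% fell. The median fold change was 0.297, against 0 for all genes. At least a 2-fold rise was fitted for 8 members. Both library series held all 3 conditions of this driver: 8 members rose and 1 fell within the first series, and 15 rose and 3 fell within the second, where 7.56% and 25% of all genes were called in either direction.

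Gbp7 changed most. It was at 15.7, 19.4, 28.1 and 20.3 CPM in controls and at 93.4, 41.8, 106.2 and 127 CPM after vAKI, all 4 above every control (2.15 ± 0.317, adjusted p = 0.000172). Isg20 was at 1.55, 1.74, 0.848 and 1.91 CPM in controls and at 8.56, 3.51, 4.48 and 5.50 CPM after vAKI (1.88 ± 0.363, adjusted p = 0.00169), again without overlap. Irf1 was at 9.59, 11.0, 17.6 and 22.7 CPM in controls and at 22.1, 29.1, 57.9 and 45.56 CPM after vAKI (1.35 ± 0.334, adjusted p = 0.00921). Here the lowest vAKI library fell inside the control range.

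Irf4, a factor of lymphocytes and myeloid cells, was called at 1.41 ± 0.384 (adjusted p = 0.0163), but only vAKI replicate 1 stood out, at 37.8 CPM against 8.61, 7.23 and 7.93 CPM in the others and 4.19 to 7.84 CPM in controls. Without that library its fold change was 0.45 with an adjusted p of 0.165, and without Control replicate 6 it was 1.34 with an adjusted p of 0.0566. Gbp3, Rtp4, Rsad2 and Mx2 rose by 1.26, 1.22, 1.20 and 1.19, each with some overlap of the groups. Rsad2, for one, was at 7.96, 12.1, 19.9 and 23.01 CPM in controls and at 19.0, 35.5, 49.0 and 40.3 CPM after vAKI. Usp18 (0.82), Irf7 (0.81), Parp14 (0.69), Stat2 (0.49) and Tap2 (0.49) completed the members that rose. The last of these was weak: over the 22 fits that each left out 1 library the Tap2 call was kept in 7, and the Stat2 call in 17. Tap2 was also not called with no filter on low counts, with the replicate block or within the first library series.

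Ciita and Irf2 fell in this pulldown too. Ciita was at 10.3, 6.49, 17.0 and 6.97 CPM in controls and at 7.75, 2.65, 3.84 and 2.72 CPM after vAKI (-1.24 ± 0.325, adjusted p = 0.0137). The call was lost without vAKI replicate 7 (adjusted p = 0.0542) and without Control replicate 10 (adjusted p = 0.0797). Irf2 was at 36.5, 41.8, 36.9 and 32.2 CPM in controls and at 29.3, 24.8, 28.5 and 27.7 CPM after vAKI, without overlap (-0.40 ± 0.118, adjusted p = 0.0247). The Irf2 call was kept in 16 of the 22 fits that each left out 1 library. It was lost with the replicate block and in females alone. By role, 4 regulators rose and 2 fell, 5 effectors, 2 GTPases, 1 antigen processing gene and 1 enzyme of the ISG15 and ubiquitin system rose, and no RNA sensor was called.

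The number of calls depended on single libraries of small groups. Without Control Atp6b1v1 replicate 6 there were 7 called members in place of 15, without vAKI replicate 6 also 7, and without vAKI replicate 7 there were 9. Cell markers moved in this comparison too. Of 7 macrophage markers 1 fell (Csf1r, -0.81), with summed levels of 125 to 161 CPM in controls and 79.1 to 129 CPM after vAKI. No MHC class II gene was called by edgeR, with 241 to 329 CPM and 120 to 302 CPM. The 6 T cell markers gave 2 falls, with 6.57 to 15.3 CPM and 4.41 to 5.32 CPM. No macrophage, T cell or MHC class II gene was at 0 in every library of either group, and 3 of 6 intercalated cell markers fell, from 706 to 934 CPM to 456 to 604 CPM. The 5 dendritic cell markers gave 1 rise and 3 falls, with 14.5 to 18.7 CPM and 14.7 to 21 CPM, and 1 of 4 B cell markers fell, with 3.32 to 6.25 CPM and 1.42 to 2.71 CPM. Falls were also called for 3 of 5 fat cell markers (31.8 to 93.6 CPM and 9.44 to 24.9 CPM), 1 of 6 endothelial markers (170 to 211 CPM and 140 to 204 CPM) and 1 of 2 markers of the thick ascending limb (970 to 1980 CPM and 862 to 998 CPM). Of 6 principal cell markers 1 rose and 1 fell. Their part in the result was not tested.

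Of the members that rose after vAKI, 11 passed the threshold in both pulldowns, 10 in Hoxb7 alone and 2 (Irf4 and Parp14) in Atp6b1v1 alone. Those 11 were Irf1, Irf7, Stat2, Isg20, Rsad2, Mx2, Rtp4, Usp18, Gbp3, Gbp7 and Tap2, of which Tap2 and Stat2 often lost their Atp6b1v1 call when 1 library was left out, as given above. The 2 members that fell were the same in both. Passing in 1 pulldown only does not show a difference between them. The difference of the 2 responses was tested directly, and 1 of 46 members passed (background 2.04% higher and 2.16% lower in Atp6b1v1). This was Irf8, which rose in the Hoxb7 pulldown and stood at -0.03 in the Atp6b1v1 pulldown, with 16.7, 19.0, 17.1 and 15.5 CPM in Atp6b1v1 controls and 19.2, 16.5, 16.1 and 14.2 CPM after vAKI. The Atp6b1v1 response was smaller by a log2 difference of -2.05 ± 0.237 (adjusted p = 6.05e-05), and after vAKI the Hoxb7 level lay above the Atp6b1v1 level that it was below in controls. Without Control Hoxb7 replicate 4 the number of members with different responses was 6, and without Control Hoxb7 replicate 5, Control Atp6b1v1 replicate 6 or vAKI Atp6b1v1 replicate 6 it was 2. The median difference over the members was -0.212, against 0.015 for all genes.

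**Figure D2:**
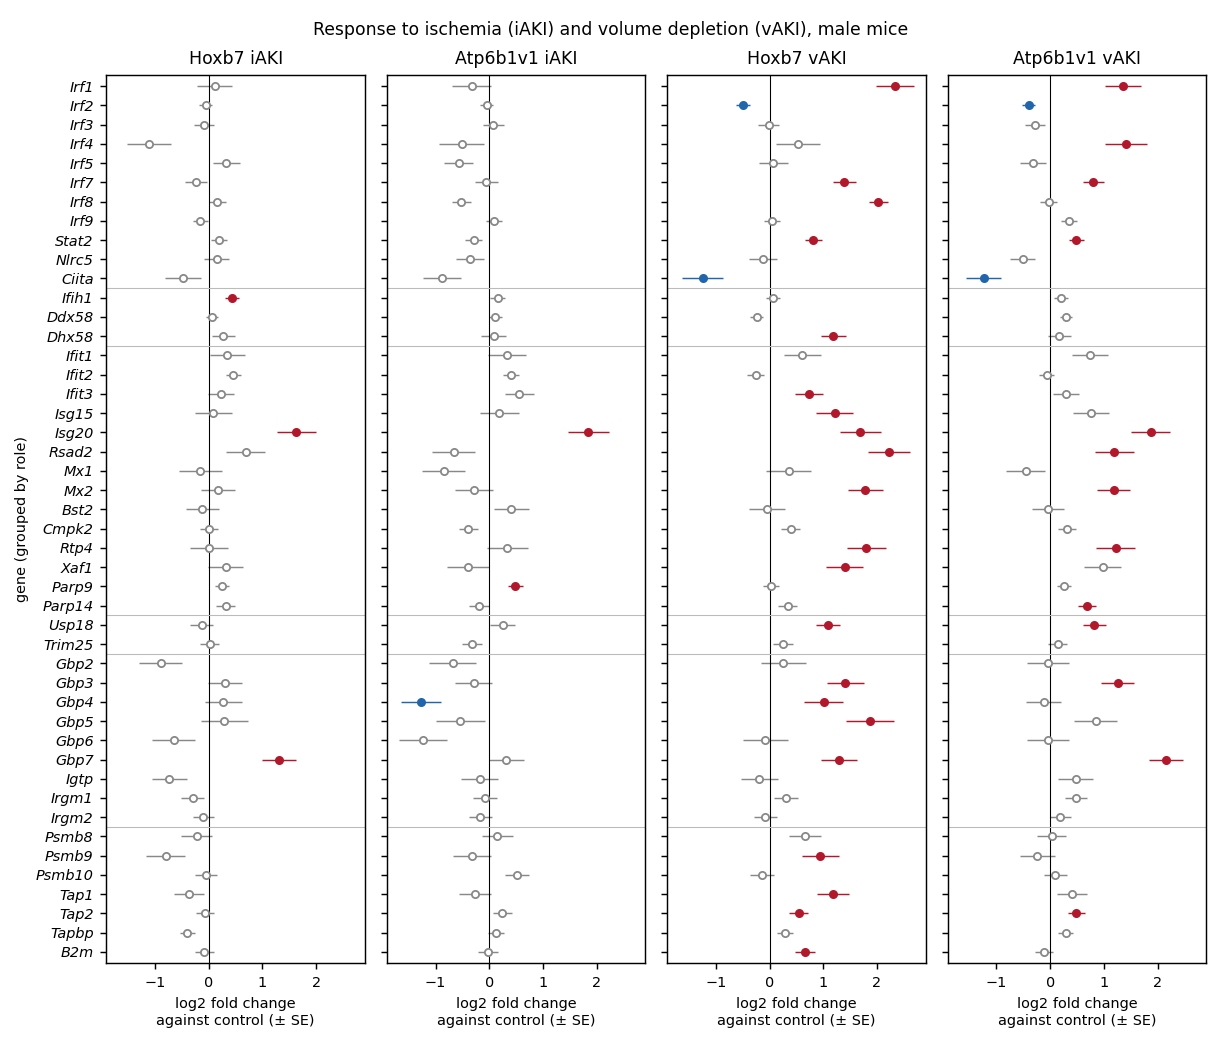
Log2 fold change against control (horizontal axes, ± SE) for each of the 46 genes (vertical axis, grouped by role) after iAKI and vAKI in the male Hoxb7 and Atp6b1v1 pulldowns. Filled red points rose and filled blue points fell at an adjusted p under 0.05, and open points were not called. The vAKI panels hold 21 and 13 red points, the iAKI panels 3 and 2.

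Ischemia was followed by few calls. In the Hoxb7 pulldown 3 members rose (6.52%) and none fell after iAKI, where 3.34% of all genes rose and 2.79% fell. By DESeq2 4 rose and 2 fell, and 9 members had an unadjusted p under 0.05 in edgeR. The median fold change was 0.0131, against 0 for all genes. Isg20 went from 1.77, 1.31, 1.43 and 1.64 CPM to 3.12, 7.62, 4.07 and 4.13 CPM, without overlap (1.63 ± 0.365, adjusted p = 0.0102). Gbp7 went from 8.89, 6.59, 15.9 and 7.50 CPM to 15.2, 33.3, 27.1 and 19.7 CPM, with 1 iAKI library inside the control range (1.31 ± 0.317, adjusted p = 0.0161). Ifih1, which encodes the RNA sensor MDA5, rose from 17.9 to 21.3 CPM to 23.2 to 29.1 CPM (0.43 ± 0.125, adjusted p = 0.0414). Its call was kept in 12 of the 22 fits that left out 1 library and under 4 of 9 other settings. Without iAKI replicate 5 no member was called, and without Control replicate 3 or 5 there was 1. Within the first library series 4 members rose and 1 fell, where 10.9% of all genes were called in either direction.

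In the Atp6b1v1 pulldown 2 members rose (4.35%) and 1 fell (2.17%) after iAKI, where 3.77% of all genes rose and 4.74% fell. The median fold change was -0.124, against 0 for all genes, and 12 members had an unadjusted p under 0.05. Isg20 was at 5.92, 2.22 and 8.25 CPM after iAKI, all above the 0.848 to 1.91 CPM of the controls (1.84 ± 0.38, adjusted p = 0.00525). Parp9, which reads ADP-ribose on proteins at damaged DNA and in the interferon response, rose from 15.6 to 20.9 CPM to 21.9 to 28.6 CPM (0.49 ± 0.141, adjusted p = 0.0343). Gbp4 fell from 4.44, 5.47, 10.6 and 7.37 CPM to 2.04, 2.64 and 4.02 CPM (-1.27 ± 0.37, adjusted p = 0.0341). Without iAKI replicate 1 or Control replicate 11 there was 1 called member. Within the first library series 3 rose and 2 fell, where 13% of all genes were called in either direction.

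The injury itself was visible in these libraries. Havcr1 and Lcn2, the usual markers of tubular injury, rose after iAKI by 5.45 and 2.78 in the Hoxb7 pulldown and by 6.03 and 4.41 in the Atp6b1v1 pulldown. The neutrophil marker S100a9 rose by 2.41 and 3.46, with 1 of 4 neutrophil markers called in each and summed levels of 1.11 to 2.52 CPM and 1.99 to 4.48 CPM after iAKI against 0.328 to 1.14 CPM and 1.41 to 2.55 CPM in controls. The 7 macrophage markers gave 1 rise in the Hoxb7 pulldown (Cd68) and none in the Atp6b1v1 pulldown by edgeR. In the Hoxb7 pulldown all 6 principal cell markers fell after iAKI, from 2420 to 3030 CPM to 868 to 1050 CPM, as did 5 of 5 fat cell markers, from 40.8 to 113 CPM to 7.31 to 22.5 CPM. In the Atp6b1v1 pulldown 2 of 5 proximal tubule markers fell, from a summed 1580 to 3320 CPM to 655 to 930 CPM. The part of these cells in the iAKI calls was not tested. Isg20 was the only member that rose after iAKI in both pulldowns. The iAKI responses of the 2 pulldowns were compared directly, and 0 of 46 members differed by edgeR (7 at an unadjusted p under 0.05, and 2 by DESeq2), where 3.67% of all genes were higher and 4.11% lower in Atp6b1v1. The median difference was -0.00633. Leaving out iAKI Atp6b1v1 replicate 5 gave 3 such members, and leaving out Control Hoxb7 replicate 4 or Control Atp6b1v1 replicate 6 gave 1.

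The 2 injuries were also set against each other within a driver, which needs no controls. In the Hoxb7 pulldown 22 members (47.8%) were lower after iAKI than after vAKI and 3 (6.52%) were higher, where 16.4% of all genes were lower and 16.9% higher. The median difference was -0.588, against 0 for all genes. The largest were Irf1 at -2.23 ± 0.355, Irf8 at -1.86 ± 0.174, Rtp4 at -1.79 ± 0.368, Psmb9 at -1.75 ± 0.364, Irf4 at -1.65 ± 0.43 and Irf7 at -1.64 ± 0.214, with adjusted p from 1.49e-07 (Irf8) to 0.00472 (Irf4). Irf4 and Psmb9 took this place with fold changes against control of opposite sign, at -1.12 and -0.81 after iAKI and 0.53 and 0.95 after vAKI, of which the Psmb9 rise alone was called. Higher after iAKI were Ifit2 (0.72), Irf2 (0.45) and Ifih1 (0.36).

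In the Atp6b1v1 pulldown 15 members (32.6%) were lower after iAKI than after vAKI and 2 (4.35%) were higher, where 15% of all genes were lower and 14.3% higher. The median difference was -0.437, against 0 for all genes. Irf4 (-1.93), Rsad2 (-1.86), Gbp7 (-1.83), Irf1 (-1.68), Gbp3 (-1.54) and Mx2 (-1.46) led the members that were lower, and Ifit2 (0.47) and Irf2 (0.35) were higher. Without iAKI replicate 4 the total was 11 members in place of 17. Ifit2 and Irf2 were thus higher after ischemia than after volume depletion in both pulldowns, each by less than 1 on the log2 scale. Neither was called after iAKI against control, and Irf2 had fallen after vAKI in both.

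**Figure D3:**
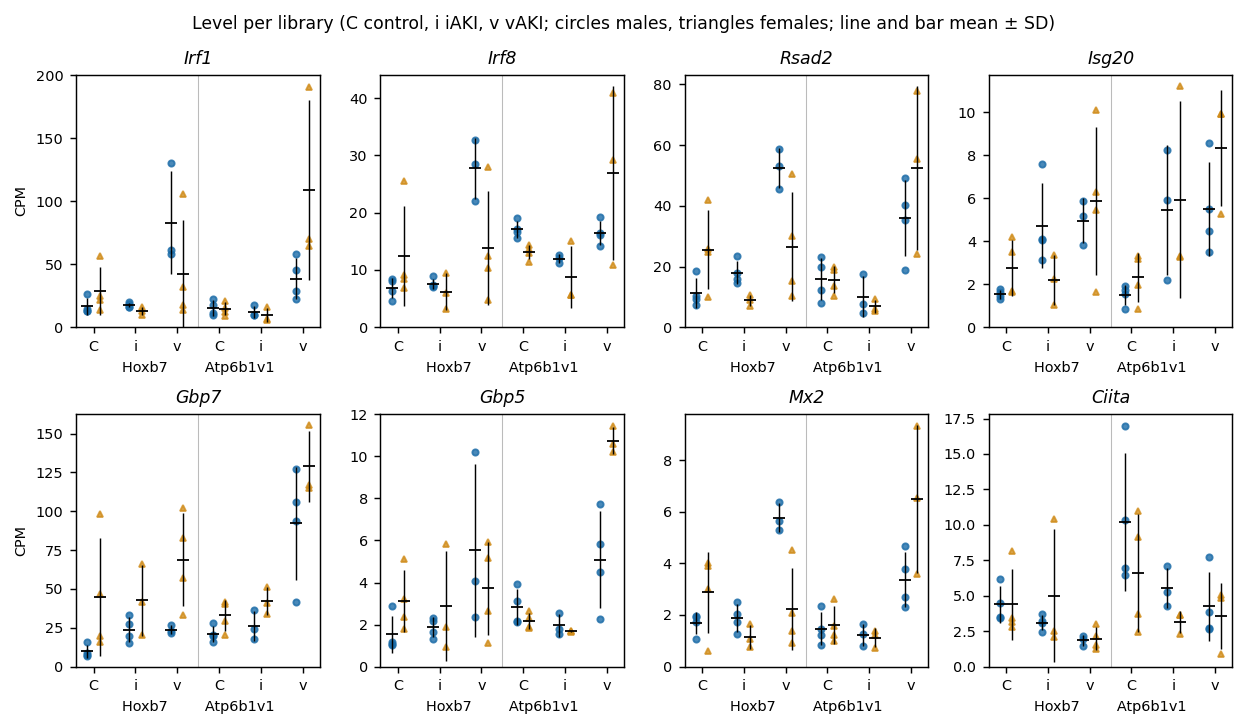
CPM of 8 members in each pulldown library of 5.5 months (vertical axes from 0), by driver and condition (C control, i iAKI, v vAKI). Circles are males, triangles females, lines the mean and bars the SD. Irf8 is high after vAKI in the Hoxb7 males (22 to 32.7 CPM) and flat in the Atp6b1v1 males (14.2 to 19.2 CPM), and the female vAKI groups spread more widely than the male ones for Irf8, Rsad2 and Mx2.

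The study presented its males, and the females of 5.5 months are given here beside them (4 Control, 3 iAKI and 4 vAKI with Hoxb7Cre, 4, 3 and 3 with Atp6b1v1Cre). The female Hoxb7 vAKI libraries did not move together. Irf1 was at 13.5, 56.9, 24.5 and 21.5 CPM in female controls and at 14.0, 32.1, 17.9 and 105.5 CPM after vAKI. Rsad2 was at 9.86, 41.8, 25.6 and 24.8 CPM in controls and at 10.4, 30.0, 15.2 and 50.5 CPM after vAKI. Control replicate 6 and vAKI replicate 5 held the highest values of their groups in both genes, and the groups overlapped. In the fit of females alone given above, no member was called for Hoxb7 vAKI by edgeR, with 5 at an unadjusted p under 0.05.

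In the female Atp6b1v1 libraries 15 members were higher and none lower after vAKI in the fit of females alone (32.6% of the members), where 18% of all genes were called in either direction. Irf1 was at 15.6, 9.17, 21.2 and 12.1 CPM in controls and at 191, 70.2 and 64.8 CPM after vAKI, and Gbp7 was at 41.7, 29.4, 20.6 and 40.5 CPM and at 115, 117 and 155 CPM. Neither gene overlapped between the groups. Irf8 was at 14.3, 12.9, 11.4 and 13.7 CPM in controls and at 41.0, 29.1 and 10.8 CPM after vAKI, so that 2 of 3 females were above the controls, whereas the male vAKI libraries spanned 14.2 to 19.2 CPM against 15.5 to 19.0 CPM in controls. In females the Irf8 difference between drivers was 0.90 with an adjusted p of 0.504, opposite in sign to that of the males.

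The difference between the sexes was tested in 1 fit of the 43 pulldowns of 5.5 months, a test added after the female values had been seen. For Hoxb7 vAKI the male response was higher for 5 members and lower for 1, where 7.48% of all genes were higher and 8.51% lower. Rsad2 differed by 2.17 ± 0.623, Mx2 by 2.17 ± 0.624, Irf8 by 1.88 ± 0.572, Irf7 by 1.34 ± 0.378 and Stat2 by 1.12 ± 0.308, with adjusted p from 0.0141 to 0.0235. Irf2 differed by -0.82 ± 0.184 (adjusted p = 0.00442), as it stood at 24.1 to 29.2 CPM in female controls and 26.5 to 37.4 CPM after vAKI. For Hoxb7 iAKI Rsad2 alone differed, by 2.22 ± 0.645 (adjusted p = 0.0257), where 6.51% of all genes were higher and 4.03% lower. For both Atp6b1v1 responses 0 members and 0% of all genes passed in either direction in edgeR, with 1 member at an unadjusted p under 0.05 for iAKI and 7 for vAKI. The median male minus female difference for Hoxb7 vAKI was 0.59, against 0 for all genes, and for Atp6b1v1 vAKI it was -0.298, against 0.0212.

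**Figure D4:**
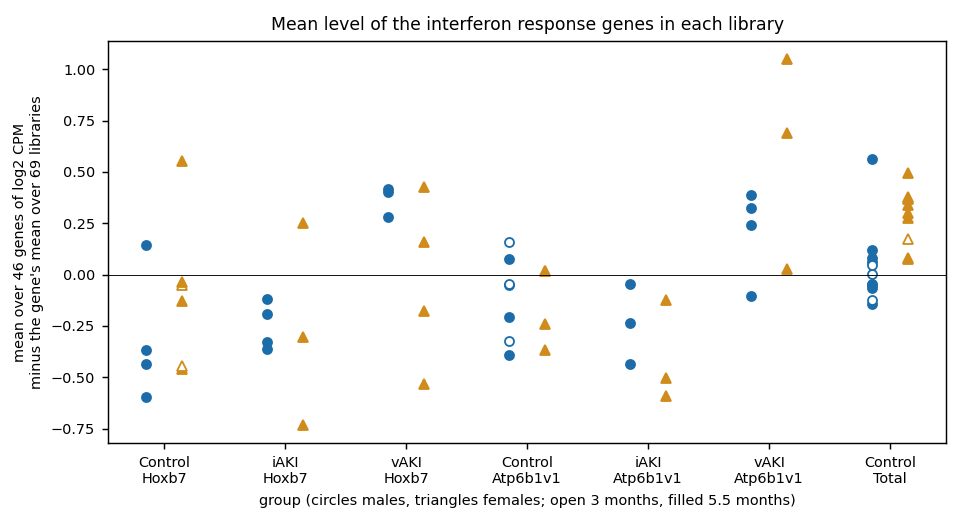
Mean over the 46 genes of log2 CPM minus each gene's mean over the 69 libraries (vertical axis), for every library by group (horizontal axis). Circles are males, triangles females, open symbols mice of 3 months. The 3 male vAKI Hoxb7 libraries sit at 0.28 to 0.415, above the 4 male controls at -0.594 to 0.146, and 1 female vAKI Atp6b1v1 library stands highest, at 1.05.

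In uninjured kidneys the RNA of the pulldowns was compared with total kidney RNA, over all 42 control libraries with sex as a covariate. The fit was unpaired, although a pulldown and a total library may come from the same mouse. In the Hoxb7 pulldown 15 members (32.6%) were higher than in total RNA and 19 (41.3%) lower, where 35.6% of all genes were higher and 31.1% lower. In the Atp6b1v1 pulldown 14 (30.4%) were higher and 17 (37%) lower, where 34.4% were higher and 29.4% lower. The median differences were -0.159 and -0.0367, against 0.107 for all genes in both. The shares that were higher lay somewhat below the background, and the shares that were lower lay somewhat above it. These differences between shares were not tested. The background also holds genes with far fewer counts than any member, which are harder to call in either direction. No depletion of the members as a set is therefore read from these shares. Both comparisons share the 21 total libraries, and the labelled cells and the age of the RNA cannot be told apart in them.

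The members that were far lower in the pulldowns were led by Bst2, which encodes tetherin, a protein that holds budding virus at the cell surface. Bst2 was at 10.1 to 16.1 CPM (median 13.4) in total RNA, at 0.834 to 2.13 CPM (median 1.13) in the Hoxb7 pulldown and at 1.02 to 1.99 CPM (median 1.67) in the Atp6b1v1 pulldown. The pulldown ranges did not reach the total range, and the differences were -3.30 ± 0.141 and -3.05 ± 0.133. B2m was at 247 to 538 CPM (median 382) in total RNA, at 38.1 to 77.1 CPM (median 49.3) in the Hoxb7 pulldown and at 54.4 to 89.0 CPM (median 64.6) in the Atp6b1v1 pulldown, again without overlap (-2.93 and -2.49). The other members lowest against total RNA were Psmb8 (-1.797), Psmb10 (-1.65), Gbp3 (-1.63) and Isg15 (-1.47) in the Hoxb7 pulldown. In the Atp6b1v1 pulldown they were Isg15 (-1.67), Psmb10 (-1.58), Irf7 (-1.35) and Gbp3 (-1.27).

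Antigen processing genes stood apart from the other roles by count, with 6 of 7 lower and none higher in each pulldown, and Tap1 as the member that was not called. Other proteasome genes did the same, as all 3 constitutive subunits were lower, with median differences of -2.27 in the Hoxb7 pulldown and -2.28 in the Atp6b1v1 pulldown. Above total RNA were Irf4 (1.09 and 1.58) and Mx1 (1.07 and 1.56) in both pulldowns. Irf4 was at 0.854 to 5.17 CPM (median 2.93) in total RNA, at 4.08 to 10.1 CPM (median 5.85) in the Hoxb7 pulldown and at 4.19 to 12.6 CPM (median 7.56) in the Atp6b1v1 pulldown, with some overlap. Parp14 (0.95), Ddx58 (0.93), Mx2 (0.79) and Ifit1 (0.69) followed in the Hoxb7 pulldown. Ciita (1.10), Nlrc5 (0.84), Ifit2 (0.67) and Gbp7 (0.67) followed in the Atp6b1v1 pulldown.

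**Figure D5:**
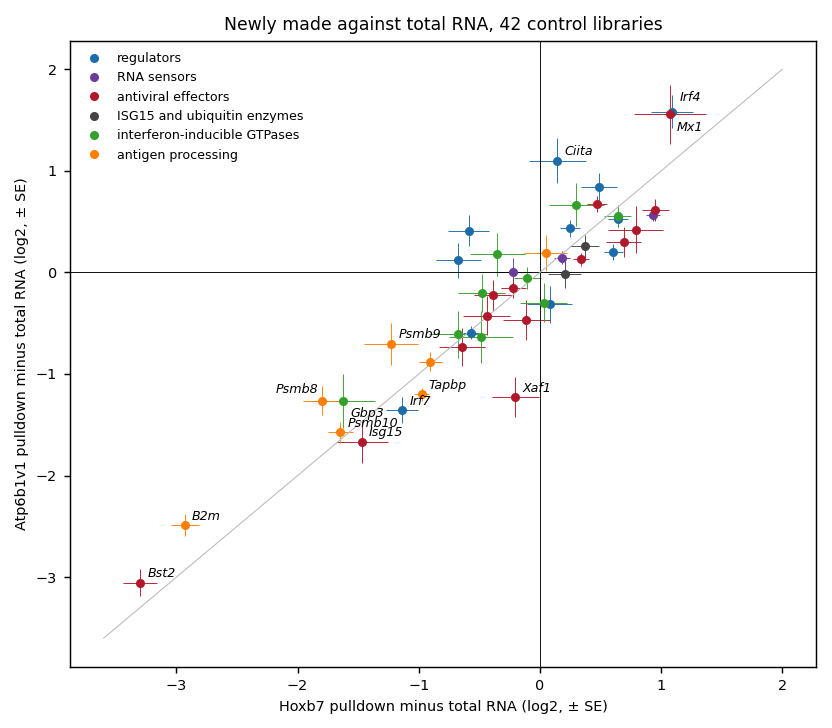
Log2 difference between pulldown and total RNA in the 42 control libraries (± SE), for Hoxb7 (horizontal axis) and Atp6b1v1 (vertical axis), 1 point for each of the 46 genes, coloured by role, with the line of equal values. Both axes share the 21 total libraries. Bst2 (-3.30 and -3.05) and B2m (-2.93 and -2.49) lie lowest, and Irf4 and Mx1 highest.

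The 2 control pulldowns differed for 9 members, 5 higher (10.9%) and 4 lower (8.7%) in Atp6b1v1, where 5.73% of all genes were higher and 4.2% lower. The median difference was 0.0388, against -0.00912 for all genes. Irf5, a factor of myeloid cells, was at 3.45 to 17.3 CPM (median 11.3) in the Hoxb7 controls and at 13.4 to 31.4 CPM (median 22.5) in the Atp6b1v1 controls (1.00 ± 0.193, adjusted p = 0.000162). Ciita (0.96), Irf8 (0.79), Psmb8 (0.53) and B2m (0.44) were also higher in Atp6b1v1. Xaf1, a protein tied to apoptosis after interferon, was at 2.77 to 6.30 CPM (median 5.01) in the Hoxb7 controls and at 1.30 to 4.15 CPM (median 2.21) in the Atp6b1v1 controls (-1.02 ± 0.227, adjusted p = 0.00109). Irf9 (-0.40), Ddx58 (-0.37) and Tapbp (-0.22) were lower too. With controls of 5.5 months only, 1 member was higher and 5 were lower in Atp6b1v1, where 8.13% of all genes were called in either direction. Every one of the Irf5, Irf8, Ciita and Xaf1 ranges overlapped between the pulldowns.

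Blood cell markers moved in the same comparison. All 6 MHC class II genes were higher in the Atp6b1v1 controls, with a median difference of 1.75, as were 6 of 7 macrophage markers, 6 of 6 T cell markers, 4 of 5 dendritic cell markers and 3 of 5 NK cell markers. In males of 5.5 months the macrophage markers summed to 125 to 161 CPM in the Atp6b1v1 controls and 49.9 to 66.6 CPM in the Hoxb7 controls, the class II genes to 241 to 329 CPM and 50.9 to 124 CPM, and the T cell markers to 6.57 to 15.3 CPM and 1.36 to 2.62 CPM. The dendritic cell markers summed to 14.5 to 18.7 CPM and 8.82 to 15.5 CPM and the NK cell markers to 1.51 to 4.07 CPM and 0.484 to 1.88 CPM, and no marker of these lists was at 0 in every library. The part of such cells in the higher Irf5, Irf8 and Ciita was not tested.

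Some members differed between the sexes before any injury, in a test that was also added after the data had been seen. Such differences were common over all genes. In the control fit 2 members were higher in males and 10 lower, where 16.5% of all genes were higher and 13.8% lower. The total and pulldown libraries of controls match in number by sex and age, so a mouse may have given both. The fit held no term for the mouse. In that case its p-values treat libraries of the same mouse as independent. Gbp3 was at 5.75 to 14.7 CPM (median 7.19) in total RNA of 11 males and at 36.5 to 148 CPM (median 69.2) in that of 10 females, without overlap. It was at 2.72 to 5.93 CPM in male and 7.56 to 29.8 CPM in female Hoxb7 controls, and at 3.73 to 7.79 CPM in male and 9.61 to 18.1 CPM in female Atp6b1v1 controls. In all 3 kinds of library each female thus lay above each male, and the difference was -2.56 ± 0.215 (male minus female, adjusted p = 3.12e-13). Its neighbour Gbp7 differed by -1.06 ± 0.191, with overlapping ranges in total RNA of 7.06 to 17.5 CPM in males and 12.3 to 47.2 CPM in females. Isg20 (-0.80), Irf4 (-0.68), Mx2 (-0.52), Ifit3 (-0.51), Ifit2 (-0.40), B2m (-0.29), Ddx58 (-0.18) and Ifih1 (-0.18) were lower in males, and Trim25 (0.41) and Irf3 (0.18) higher.

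The rest of the pathway was read from lists that hold no member. Of 9 interferon genes 7 passed the minimum of counts, none was called in the 4 injury comparisons by edgeR, and their summed level in the male pulldowns was 0.0419 to 0.741 CPM. In their highest library Ifng reached 4 counts, Ifnb1 1 count and Ifnk 12. Ifnk, an interferon of epithelia, was higher in the Hoxb7 control pulldown than in total RNA (1.97 ± 0.522, adjusted p = 0.000927). Of 9 receptor and kinase genes, Ifngr1, a chain of the receptor for interferon gamma, rose after vAKI in both pulldowns, by 0.72 in Hoxb7 (adjusted p = 0.000191) and 0.95 in Atp6b1v1 (adjusted p = 4.76e-05). The kinase Tyk2 (-0.46) and the receptor chain Il10rb (-0.44) fell after vAKI in the Hoxb7 pulldown. After iAKI Il10rb rose (0.53) and Jak2 fell (-0.51) in the Atp6b1v1 pulldown, and none of the 9 was called in the Hoxb7 pulldown by edgeR.

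Over all comparisons with control, 27 of the 46 members were called in at least 1 of the 4 injury comparisons and 19 in none: Irf3, Irf5, Irf9, Nlrc5, Ddx58, Ifit1, Ifit2, Mx1, Bst2, Cmpk2, Trim25, Gbp2, Gbp6, Igtp, Irgm1, Irgm2, Psmb8, Psmb10 and Tapbp. Some counts are uncertain because reads could match another gene as well, and how many such reads were left uncounted is not known here. Of all stretches of 50 bases in the transcripts, 90.2% were shared with another gene for Gbp6 and 51.2% for Ifit3, and between 12.3% and 21% for Igtp, Psmb9, Tap2, Gbp4, Gbp7, Rtp4 and Tapbp. Psmb9 and Tap1 overlap on opposite strands, as do Irf1 and the annotated gene Gm17334. Exons of Irf3, Irf5, Irf7, Nlrc5, Ciita, Dhx58, Parp9, Usp18, Gbp2, Psmb8, Tap2 and Tapbp also overlap genes on the opposite strand. Reads in all these overlaps can be told apart only if the libraries keep strand. HTSeq was run with its default settings, which count by strand, but whether the libraries keep strand is not given in the sources used here.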

How the data were processed

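RNA was measured by poly(A) RNA-Seq in 69 libraries. The deposited table holds raw read counts per gene, which the authors made with CASAVA 1.8.2, Trimmomatic 0.36, STAR 2.5.3a on mm10 and HTSeq 0.6.1p2, per the study's methods, the labels and the submitters' processing notes. HTSeq was run with its default settings. Whether the libraries keep strand is not given in the sources used here. From these counts, genes with at least 2 counts over all libraries were tested in R 4.3.3 with edgeR 4.0.16 (TMM, quasi-likelihood test, Benjamini-Hochberg adjustment), with limma 3.58.1 underneath. A first fit held the 22 male pulldowns of 5.5 months in 6 groups, with 16 residual degrees of freedom, and another the 42 controls with sex as a covariate, with 38. The fit of the controls held no term for the mouse. A further fit, added later, held the 43 pulldowns of both sexes. The test of sex in the controls was also added later. CPM used TMM factors over the 69 libraries, and RPKM the union of exons in GENCODE vM21. Libraries held 12618062 to 30305464 counts, which limits the precision of members with a few CPM. Promoter windows and their build are those of RefSeq (GRCm38.p6), matched by symbol.

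The members, roles, marker lists and tests were chosen with earlier results of these data known. Every member is accounted for. Values are given for called members, up to 8 in each direction per injury comparison and 6 in the others, by size of change, and for the highest member of each role. The injury fit was tested on simulated counts with known changes. Alternatives were DESeq2 1.42.0, its size factors in edgeR, other filters on low counts, a replicate block, the library series as a covariate, both sexes, females alone, single series and leaving out each library.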

Additional observations from a re-analysis of the deposited data

Results flagged for a closer look

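Outlying libraries were looked for in groups of 4, over 15 members and 4 groups, where chance gives about 1 in 20. In the 4 male Control Hoxb7 libraries, replicate 4 stood high for Irf1 (26.57 CPM, nearest other 14.48), Gbp5 (2.864 CPM, nearest 1.18) and Gbp4 (5.531 CPM, nearest 2.065), and replicate 2 stood high for Irf4 (6.068 CPM, nearest 4.346). In the 4 male vAKI Atp6b1v1 libraries, replicate 1 stood high for Irf4 (37.79 CPM, nearest 8.613) and replicate 2 low for Parp9 (18.88 CPM, nearest 22.46).

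The response to volume depletion differed between the drivers for Irf8, by -2.05 on the log2 scale (Atp6b1v1 minus Hoxb7, edgeR, adjusted p = 6.05e-05). The male response exceeded the female one in the Hoxb7 pulldown after vAKI for Rsad2 (2.172), Mx2 (2.168), Irf8 (1.881), Irf7 (1.338) and Stat2 (1.125) and was below it for Irf2 (-0.8205). After iAKI it exceeded the female one for Rsad2 (2.218). The vAKI genes were picked by this difference in the same libraries, so their values per library describe it and are no further test. The male vAKI libraries lay above all male controls for Rsad2, Mx2, Irf8, Irf7 and Stat2, in 3 of 3 libraries. In the females, 1 of 4 vAKI libraries, replicate 5, lay above all female controls for Rsad2, Mx2, Irf8 and Irf7, and none did for Stat2.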

How the results depend on the processing

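The number of called members stayed within 1.5 times its value with DESeq2's size factors in edgeR and with no filter on low counts in every comparison. With DESeq2 it was 6 in place of 3 for Hoxb7 iAKI, 5 in place of 3 for Atp6b1v1 iAKI, and 2 in place of 0 and 4 in place of 1 for the driver differences after iAKI and vAKI. With filterByExpr the latter was 2. With the library series as a covariate these 4 counts were 6, 5, 4 and 9. With both sexes and sex as a covariate the counts were 1 for Hoxb7 iAKI, 9 for Hoxb7 vAKI (23 in males), 7 for Atp6b1v1 iAKI, 24 for Atp6b1v1 vAKI (15 in males), 28 for Atp6b1v1 iAKI minus vAKI (17 in males) and 0 for the vAKI driver difference. In females alone they were 0 for both Hoxb7 injuries, 1 for Atp6b1v1 iAKI, 1 for Hoxb7 iAKI minus vAKI (25 in males), 0 for the vAKI driver difference and 0 for the control pulldowns (9 in both sexes). The first library series alone gave 5 for Hoxb7 iAKI, 5 for Atp6b1v1 iAKI and 9 for Atp6b1v1 vAKI, and the second 1 for Atp6b1v1 iAKI, in a fit that assumed its lone iAKI library to vary like the other groups. Leaving out 1 library gave 0 to 4 for Hoxb7 iAKI, 19 to 27 for Hoxb7 vAKI, 1 to 4 for Atp6b1v1 iAKI, 7 to 19 for Atp6b1v1 vAKI, 17 to 25 and 11 to 18 for iAKI minus vAKI in Hoxb7 and Atp6b1v1, and 0 to 3 and 1 to 6 for the driver differences. With the replicate number as a replicate block there were 13 for Hoxb7 vAKI and 0 for Atp6b1v1 iAKI (9 at an unadjusted p under 0.05). Libraries with the same number did not deviate together (in 8 such pairs of males the correlation was between -0.441 and 0.214), so the numbers do not pair the libraries. Signs turned with both sexes for Gbp4 after Hoxb7 vAKI (-0.15). In females alone they turned after Hoxb7 iAKI for Ifih1 (-0.13), Gbp7 (-0.069) and Isg20 (-0.32), after Hoxb7 vAKI for Stat2 (-0.305), Mx2 (-0.37), Psmb9 (-0.21), Ifit3 (-0.62), Isg15 (-0.069), Gbp4 (-1.004) and Irf2 (0.32), and for the Irf8 driver difference (0.90). The causes were not tested. Of 45 named values, 45 stayed past the threshold with DESeq2, 24 with the replicate block, 27 with both sexes and 8 in females alone. Depth limits the precision of Isg15, Mx1 and the interferon genes, which had few counts.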
